A study of Drosophila melanogaster with 8 samples.

Results

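The 117 genes described here are the odorant receptors (Or), gustatory receptors (Gr) and ionotropic receptors (Ir) of Drosophila melanogaster that were measured on spotted two-channel arrays. They were chosen by name alone: the gene symbol in the annotation of the spots had to begin with Or, Gr or Ir followed by a number and a letter, and the spot had to be paired with 1 gene. The rule found 49 Or genes, 27 Gr genes and 41 Ir genes, on 118 spots, among 10610 measured genes. RefSeq lists 59, 60 and 66 genes of these name patterns, so the Gr family was the least covered. The odorant co-receptor Orco has no name of this pattern and is given beside the members, not counted among them. All 117 genes entered every fit, since no filter on low values was set.

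These receptors are the proteins with which a fly smells and tastes. An odorant receptor forms an ion channel together with the co-receptor Orco in the dendrite of an olfactory neuron, and each neuron usually expresses a single odorant receptor besides Orco. Gustatory receptors detect sugars and bitter compounds and, for a pair of them, carbon dioxide. Ionotropic receptors descend from the ionotropic glutamate receptors of synapses, need co-receptors such as Ir25a, Ir8a or Ir76b, and detect acids, amines, temperature and humidity. Larvae smell with a small set of neurons in the dorsal organ of the head. Adults use many more neurons in the antenna and the maxillary palp, with a repertoire that overlaps that of larvae in part.

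Each of the 8 arrays compared RNA of whole larvae with RNA of adults, both of Canton S, a wild-type strain, and each mixed from several stages; ages, sexes and animal numbers are not given in the labels. Per the labels, portions of 1 master TRIzol homogenate (TRIzol is a phenol-based reagent for RNA extraction) went through the procedure separately, in order to assess technical error. All arrays are therefore technical replicates, and the p-values below measure only the technical spread between arrays. Larvae were in channel 1 on replicates 1, 3, 6 and 8, and adults were in channel 1 on replicates 2, 4, 5 and 7. In RNA of whole animals, fewer receptor neurons and less receptor RNA per neuron cannot be told apart.

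The value of a gene is its turned log2 ratio: the deposited log2 ratio of the 2 channels, centred on the median of the spots paired with 1 gene on each array, with its sign reversed where adults were in channel 1. The labels do not say which channel served as numerator. With channel 1 as numerator a negative turned ratio means more adult RNA, and with channel 2 it means more larval RNA. Stage markers lay on both sides: of larval markers, the fat body protein gene Fbp1 was at 4.30 and the glue protein gene Sgs5 at -1.45, and of adult markers, the flight muscle genes TpnC4 and fln were at 3.87 and 2.35 and the vitelline membrane gene Vm26Aa at -0.37. Of 4 larval markers measured, 1 passed on each side, and of 8 adult markers 5 passed as positive and 1 as negative. Results are given by side, with no stage attached. No value was missing, and precision is limited by there being 8 arrays.

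Most receptor genes lay on the negative side, in all 3 families and by a similar, small amount. A gene passed when its adjusted p, from limma's moderated test with Benjamini-Hochberg adjustment over all 10610 genes, was under 0.05. Of all genes, 57.1% passed on either side, 29.2% as positive and 27.9% as negative, so passing was common on these arrays. Among the 49 Or genes 38 passed as negative, 2 passed as positive and 9 did not pass. Among the 27 Gr genes the counts were 19, 1 and 7, and among the 41 Ir genes they were 29, 3 and 9. The median ratio was -0.47 for Or genes, -0.46 for Gr genes and -0.39 for Ir genes, against -0.01 for all genes. In all, 86 of the 117 receptor genes passed on the negative side and 105 had a mean below zero.

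The receptor ratios were narrow in range as well as shifted. They ran from -0.74 for the bitter receptor Gr33a to 0.93 for the odorant receptor Or43b, and the middle 50% of members lay between -0.53 and -0.25. The middle 50% of all genes lay between -0.29 and 0.35. No receptor gene that passed reached a difference of 2-fold, which 993 of all genes did. Among the members, 60 had a negative value on all 8 arrays and 4 had a positive one on all 8, where 19.4% and 22.3% of all genes did. Or genes did so on the negative side in 25 cases, Gr genes in 13 and Ir genes in 22.

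**Figure D1:**
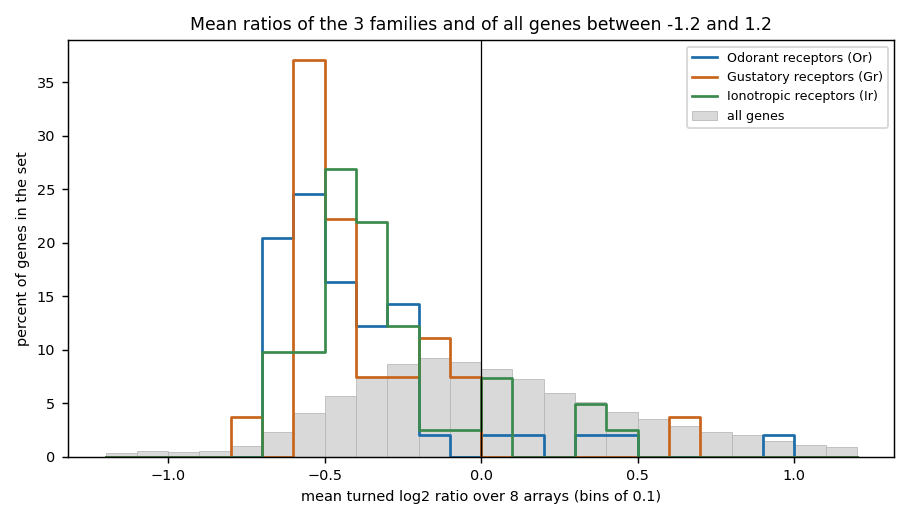
The horizontal axis is the mean turned log2 ratio over 8 arrays in bins of 0.1 and the vertical axis the percent of genes in each set, with grey bars for all 10610 genes and coloured lines for 49 Or, 27 Gr and 41 Ir genes. All genes centre near -0.01, and the 3 families peak left of zero with medians of -0.47, -0.46 and -0.39 and few members on the right; genes beyond 1.2 on either side are not drawn.

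Many receptors cannot work without a co-receptor. Of the 5 co-receptors measured, 3 passed on the negative side, where 27.9% of all genes did. Ir25a, the most widely used ionotropic co-receptor, ran over the 8 arrays from -1.17 through a median of -0.42 to -0.06, with a mean of -0.48 ± 0.38 (SD, n = 8; limma adjusted p = 0.00789). Ir76b, a co-receptor in smell and taste, ran from -1.16 through -0.29 to 0.03, with a mean of -0.39 ± 0.40 (SD, n = 8; limma adjusted p = 0.0139). Both were lowest on replicate 7, and Ir76b was above zero on replicate 1.

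Ir8a, the co-receptor of acid-sensing ionotropic receptors, was the one member with a pair of spots. Its mean was -0.38 ± 0.21 (SD, n = 8; limma adjusted p = 0.00444), and every array lay below zero. One spot gave -0.30 ± 0.29 (SD, n = 8; limma adjusted p = 0.0632) and the other -0.45 ± 0.27 (SD, n = 8; limma adjusted p = 0.00850). Both spots had a negative mean, and 1 of the 2 passed.

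Ir93a, which works with Ir25a in sensing temperature and humidity, stood apart from these 3 on its spot, with values from -0.33 to 0.67 and a mean of 0.04 ± 0.34 (SD, n = 8; limma adjusted p = 0.756). Its sign is not settled: the mean was -0.10 when arrays were centred on all spots, and -0.03 both without replicate 3 and without replicate 5. A further spot, annotated as CG17275 and so not chosen by the rule, belongs to a gene that RefSeq has since merged into Ir93a. It gave -0.70 ± 0.32 (SD, n = 8; limma adjusted p = 0.00143) and was negative on all 8 arrays. The 2 spots of what is now 1 gene therefore disagreed, and no single value is given for that gene. Orco, which almost every odorant receptor needs, lay between -0.79 and -0.17 on 7 arrays and at 0.54 on replicate 7. Its mean was -0.24 (limma adjusted p = 0.0758), and without replicate 7 it was -0.33 (limma adjusted p = 0.00498). Orco also passed as negative with arrays centred on all spots, not centred, scaled to one spread, quantile or loess normalized, or weighted. In these the limma adjusted p ran from 0.000711 to 0.0277. It did not pass with no dye column or when any other array was left out.

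**Figure D2:**
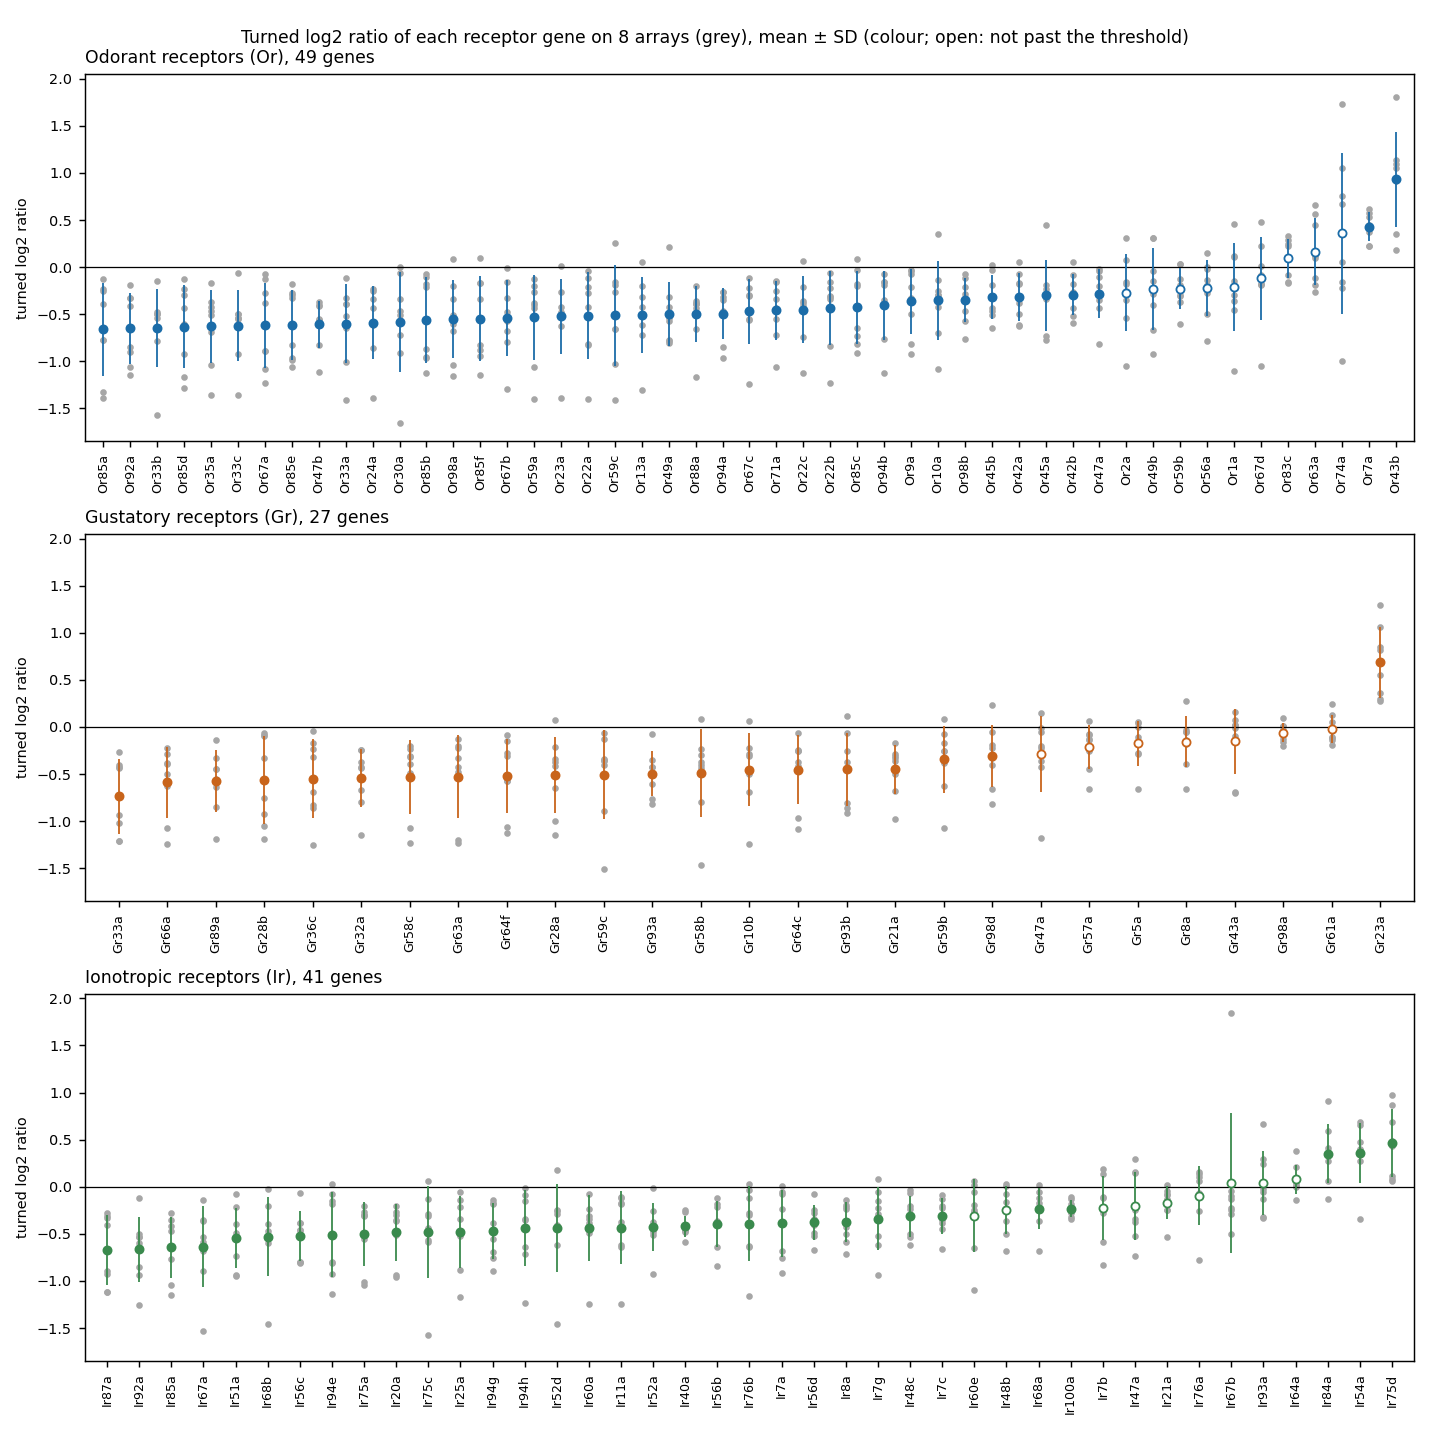
Each column on the horizontal axis is 1 receptor gene, in a panel per family, and the vertical axis is its turned log2 ratio, with grey points for the 8 arrays, a coloured point with a bar for the mean and SD, and open points for genes that did not pass. Most means lie between -0.74 and zero, and Or43b at 0.93, Gr23a at 0.69 and Ir75d at 0.46 end their panels on the right.

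Among odorant receptors, those of larval neurons, of the adult antenna and of the maxillary palp lay mostly on the same side. Of 26 receptors listed for larval olfactory neurons 24 were measured, and 19 of these passed as negative and 1 as positive, with a median of -0.44. Of 39 listed for the adult antenna 31 were measured, with 23 negative, 2 positive and a median of -0.50. Of 7 listed for the maxillary palp 6 were measured, all 6 negative, with a median of -0.56. The lists share members, and no difference between them was tested. In all genes 27.9% passed on the negative side.

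The odorant receptors furthest to the negative side served the antenna, the palp or both larva and adult. Or85a, a receptor of an antennal basiconic neuron, ran from -1.39 through -0.59 to -0.13, with a mean of -0.66 ± 0.49 (SD, n = 8; limma adjusted p = 0.00313). Or92a, the receptor for the yeast odour diacetyl, ran from -1.14 through -0.63 to -0.18, with a mean of -0.65 ± 0.38 (SD, n = 8; limma adjusted p = 0.00103). Or35a, found in larval neurons and in antennal coeloconic sensilla, had a mean of -0.63 ± 0.39 (SD, n = 8; limma adjusted p = 0.00184). None of these 3 had an array above zero, and their lowest values came from replicates 3 and 7.

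Neurons of the palp gave similar values. Or33c and Or85e, which share a palp neuron, had means of -0.62 ± 0.38 (SD, n = 8; limma adjusted p = 0.00147) and -0.61 ± 0.38 (SD, n = 8; limma adjusted p = 0.00109). Or85d, another palp receptor, had a mean of -0.64 ± 0.44 (SD, n = 8; limma adjusted p = 0.00251). Or42a, a receptor for fruit esters in the palp and in a larval neuron, was less far from zero at -0.31 ± 0.26 (SD, n = 8; limma adjusted p = 0.0196), with a positive value of 0.05 on replicate 6. Its call was lost without replicate 3 (limma adjusted p = 0.0530) or without replicate 8 (limma adjusted p = 0.0640).

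Of the 24 measured receptors of larval neurons, Or7a passed as positive, and Or1a at -0.21, Or2a at -0.27, Or63a at 0.16 and Or74a at 0.36 did not pass; these last 4 are named after their values were seen. Or94a and Or94b, which share a larval neuron, had means of -0.49 ± 0.27 (SD, n = 8; limma adjusted p = 0.00202) and -0.40 ± 0.36 (SD, n = 8; limma adjusted p = 0.0130). Or45b was at -0.32 ± 0.24 (SD, n = 8; limma adjusted p = 0.0117), and Or33a, known from larval and antennal neurons, at -0.60 ± 0.42 (SD, n = 8; limma adjusted p = 0.00319). Or33b, listed with it for both stages, was at -0.65 ± 0.42 (SD, n = 8; limma adjusted p = 0.00135). Of the 5 genes Or94a, Or94b, Or45b, Or33a and Or33b, Or45b alone had an array above zero. Or2a gained a call without replicate 1 (limma adjusted p = 0.0454).

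Or45a, a receptor found in larvae, and Or42b, a fruit-ester receptor of both stages, depended on single arrays. Or45a lay between -0.77 and -0.19 on 7 arrays and at 0.45 on replicate 5, with a mean of -0.30 ± 0.38 (SD, n = 8; limma adjusted p = 0.0322). Without replicate 2, 3, 4, 7 or 8 its limma adjusted p lay between 0.0542 and 0.0908, and with array weights it was 0.327. Or42b was at -0.29 ± 0.22 (SD, n = 8; limma adjusted p = 0.0193), with limma adjusted p = 0.0515 without replicate 3 and 0.0574 without replicate 8.

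Receptors of trichoid sensilla, which respond to fly pheromones, did not all share a value. Or47b, a receptor of fly-derived fatty acids that promotes male courtship, ran from -1.11 through -0.55 to -0.38, with a mean of -0.61 ± 0.25 (SD, n = 8; limma adjusted p = 0.000265). Or88a, from the same sensilla, was at -0.50 ± 0.30 (SD, n = 8; limma adjusted p = 0.00261). Or67d, the receptor for the male pheromone cis-vaccenyl acetate, was at -0.12 ± 0.44 (SD, n = 8; limma adjusted p = 0.482), with -1.05 on replicate 7 and -0.19 to 0.48 elsewhere. The first pair was negative on all arrays, whereas Or67d had a mean of 0.02 without replicate 7.

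Or43b and Or7a were the odorant receptors that passed on the positive side. Or43b, a receptor of antennal basiconic neurons, ran from 0.18 through 0.99 to 1.81, with a mean of 0.93 ± 0.50 (SD, n = 8; limma adjusted p = 0.000143). Its spot was among the dimmest of all genes, at brightness percentile 0.895. Or7a, of larval and antennal neurons, ran from 0.22 through 0.44 to 0.62, with a mean of 0.43 ± 0.15 (SD, n = 8; limma adjusted p = 0.00118), at brightness percentile 59.6. Both were positive on every array. The call of Or7a depended on the centring: its ratio was 0.29 (limma adjusted p = 0.0578) with arrays centred on all spots and -0.01 (limma adjusted p = 0.972) with no centring.

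Most bitter receptors and both carbon dioxide receptors lay on the negative side, and fewer of the sugar receptors passed. Of 19 bitter receptors listed 10 were measured, and 8 passed, each as negative, with a median of -0.50. Of 9 sugar receptors listed 5 were measured, and 2 passed as negative, with a median of -0.17. Over all genes 27.9% passed as negative. No difference between these lists was tested.

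Gr33a, a receptor carried by nearly all bitter-sensing neurons, was the most negative of all 117 genes. It ran from -1.21 through -0.68 to -0.27, with a mean of -0.74 ± 0.40 (SD, n = 8; limma adjusted p = 0.000459), and its spot was bright, at percentile 91.3. Gr66a, needed for the taste of caffeine, had a mean of -0.59 ± 0.37 (SD, n = 8; limma adjusted p = 0.00227). Gr93a, a partner of Gr66a in caffeine taste, was at -0.50 ± 0.24 (SD, n = 8; limma adjusted p = 0.00134). These 3 had no array above zero, nor did the broadly used bitter receptors Gr32a, at -0.54 ± 0.31 (SD, n = 8; limma adjusted p = 0.00191), and Gr89a, at -0.57 ± 0.32 (SD, n = 8; limma adjusted p = 0.00146).

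Gr21a and Gr63a, which together form the carbon dioxide receptor, had means of -0.45 ± 0.26 (SD, n = 8; limma adjusted p = 0.00276) and -0.53 ± 0.44 (SD, n = 8; limma adjusted p = 0.00810). On replicate 7 they read -0.68 and -1.23. All 8 arrays were negative for both genes, and replicates 3 and 7 were the lowest 2 for each.

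Among sugar receptors, Gr64f and Gr64c of the Gr64 cluster passed and the other 3 did not. Gr64f, a co-receptor in sugar-sensing neurons, ran from -1.13 through -0.44 to -0.09, with a mean of -0.52 ± 0.40 (SD, n = 8; limma adjusted p = 0.00555). Gr64c was at -0.46 ± 0.37 (SD, n = 8; limma adjusted p = 0.00835). Both were negative on every array. Gr5a, needed for the taste of trehalose, was at -0.17 ± 0.24 (SD, n = 8; limma adjusted p = 0.146), and Gr43a, the fructose receptor of gut, brain and legs, at -0.15 ± 0.34 (SD, n = 8; limma adjusted p = 0.208). Gr61a, a glucose receptor, had values between -0.19 and 0.24, with a mean of -0.02 ± 0.15 (SD, n = 8; limma adjusted p = 0.835), and 0.001 without replicate 7. The arrays of these 3 lay on both sides of zero, and the spot of Gr43a was dim, at brightness percentile 3.86. With no centring, where the median of all genes was -0.45, all 3 passed as negative, Gr5a at -0.61 (limma adjusted p = 0.0067), Gr43a at -0.59 (limma adjusted p = 0.00571) and Gr61a at -0.46 (limma adjusted p = 0.014).

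Of the other gustatory receptors, Gr28b, which has an isoform that senses warmth, was at -0.56 ± 0.47 (SD, n = 8; limma adjusted p = 0.00293), and Gr36c at -0.55 ± 0.42 (SD, n = 8; limma adjusted p = 0.00543). Gr23a was the single gustatory receptor that passed on the positive side. It ran from 0.28 through 0.69 to 1.29, with a mean of 0.69 ± 0.38 (SD, n = 8; limma adjusted p = 0.000890), positive on every array. With no centring its ratio was 0.25 (limma adjusted p = 0.216).

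Ionotropic receptors held 3 positive calls among 41 genes, or 7.32%, where 29.2% of all genes passed on that side. Of 17 receptors listed for the antenna 14 were measured, with 8 negative, 2 positive, 4 not passed and a median of -0.30. On the negative side 27.9% of all genes passed. Ir92a, a receptor for ammonia and amines, ran from -1.25 through -0.57 to -0.11, with a mean of -0.67 ± 0.34 (SD, n = 8; limma adjusted p = 0.000739). Ir75a, the acetic acid receptor, was at -0.50 ± 0.34 (SD, n = 8; limma adjusted p = 0.00414), and Ir75c, a receptor of the same genomic cluster, at -0.48 ± 0.49 (SD, n = 8; limma adjusted p = 0.0134). Ir92a and Ir75a were negative on all arrays, and Ir75c was above zero on replicate 1.

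Ir75d and Ir84a were the antennal receptors on the positive side. Ir75d, known to respond to pyrrolidine, ran from 0.06 through 0.46 to 0.97, with a mean of 0.46 ± 0.36 (SD, n = 8; limma adjusted p = 0.00538). Ir84a, the receptor for the food odour phenylacetaldehyde that promotes male courtship, ran from -0.13 through 0.36 to 0.91, with a mean of 0.35 ± 0.31 (SD, n = 8; limma adjusted p = 0.0192). Ir75d was positive on all arrays and Ir84a on all but replicate 2.

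Both calls were lost when arrays were centred on all spots, at 0.32 (limma adjusted p = 0.0559) for Ir75d and 0.21 (limma adjusted p = 0.234) for Ir84a. With no centring Ir75d was at 0.03 and Ir84a at -0.083. Ir84a also lost its call without replicate 3 (limma adjusted p = 0.0546) or without replicate 4 (limma adjusted p = 0.0569). Ir54a, the third ionotropic receptor on the positive side, was at -0.34 on replicate 8 and between 0.27 and 0.69 on the others, with a mean of 0.36 ± 0.32 (SD, n = 8; limma adjusted p = 0.0177). With no centring it was at -0.076. Its call was lost with arrays centred on all spots, at 0.22 (limma adjusted p = 0.218), without replicate 1 (limma adjusted p = 0.0506) and without replicate 3 (limma adjusted p = 0.0533). Without replicate 3, 1 ionotropic receptor remained past the threshold on the positive side.

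Outside the antennal list the most negative ionotropic receptors were Ir87a at -0.67 ± 0.37 (SD, n = 8; limma adjusted p = 0.000755), Ir85a at -0.64 ± 0.32 (SD, n = 8; limma adjusted p = 0.000743) and Ir67a at -0.64 ± 0.43 (SD, n = 8; limma adjusted p = 0.00260). Ir87a was the brightest of all members, at percentile 92.5. Ir68b was at -0.53 ± 0.42 (SD, n = 8; limma adjusted p = 0.00541). Ir51a, which RefSeq lists as a pseudogene, was at -0.54 ± 0.32 (SD, n = 8; limma adjusted p = 0.00206). All 8 arrays were negative for each of these 5 genes.

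At the threshold itself the values changed little from one side to the other. Just inside lay Or10a at -0.35 (limma adjusted p = 0.0329), Gr98d at -0.31 (limma adjusted p = 0.0405) and Ir68a at -0.23 (limma adjusted p = 0.0491). Just outside lay Gr57a at -0.22 (limma adjusted p = 0.0517), Gr47a at -0.29 (limma adjusted p = 0.0520) and Ir48b at -0.25 (limma adjusted p = 0.0535). Gr98d, Gr57a, Gr47a and Ir48b rested on dim spots, at brightness percentiles 1.32, 4.36, 6.80 and 6.77. The calls inside are not secure. Leaving out 1 array gave limma adjusted p from 0.0506 to 0.108 for Gr98d when it was any of replicates 2 to 8, and from 0.0659 to 0.124 for Ir68a when it was replicate 2, 3, 5, 6, 7 or 8. Or10a lost its call without replicate 1, 3, 5, 6 or 7 (limma adjusted p from 0.0522 to 0.0969). Gr57a gained a call without replicate 6 or 7, and Gr47a and Ir48b without replicate 1.

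The receptor genes shared much of their profile over the arrays. The median of all members was -0.08 on replicate 1, -0.22 on replicate 2, -0.70 on replicate 3 and -0.24 on replicate 4. It was -0.30 on replicate 5, -0.40 on replicate 6, -0.93 on replicate 7 and -0.41 on replicate 8. Replicate 7 gave the lowest value of 67 of the 117 genes and replicate 3 that of 32, and replicate 1 gave the highest value of 59. The arrays differed in the same way over all genes. The median absolute deviation of gene spots, with R's default scaling to the SD of a normal distribution, was 0.30 on replicate 1. It was 0.72 on replicate 3 and 0.94 on replicate 7. The members' median stood at percentile 39.1, 14.6 and 12.1 of all genes on these arrays. On the other 5 arrays it stood between percentiles 19.6 and 27.2. The part of array spread in the member values was not tested.

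**Figure D3:**
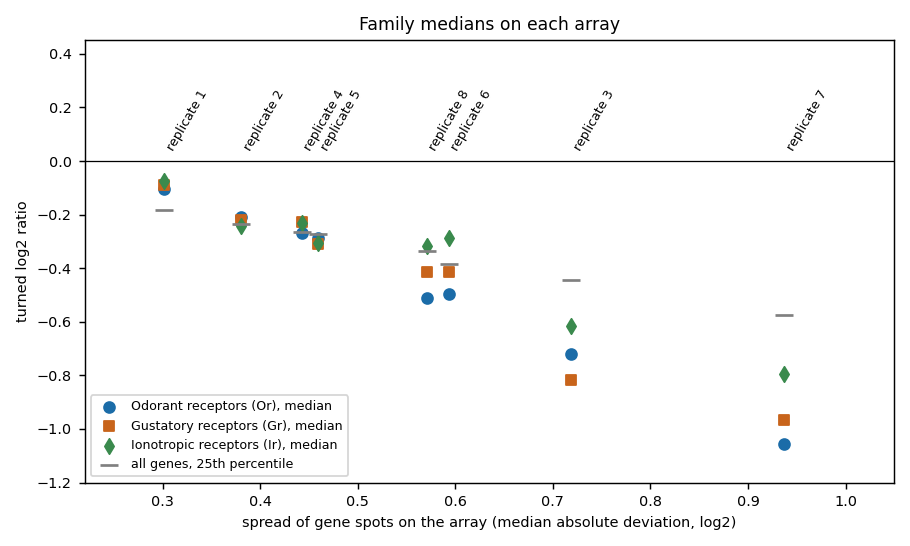
The horizontal axis is the spread of gene spots on an array (median absolute deviation with R's default scaling, log2). The vertical axis is the turned log2 ratio, with a coloured point for each family's median on each of the 8 arrays. A grey dash marks the 25th percentile of all genes. The family medians lie lowest on the 2 arrays with the widest spread, replicates 3 and 7, and within 0.11 of zero on replicate 1.

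Single members followed this profile to different degrees. Over the 8 arrays the correlation of a gene with the median of the other members had a median of 0.797, and it was above 0.8 for 56 genes. For 9 genes it was below zero, the lowest being Ir64a, which works with Ir8a in sensing acids, at -0.789. These correlations are a description, since all points share the same arrays. The same correlation was not computed for genes that are not members. Whether such a shared profile is particular to receptor genes was therefore not tested. The family medians were close on each array: the median of Or genes minus that of Gr genes lay between -0.10 and 0.09 over the arrays, with a mean of -0.02 ± 0.07 (SD, n = 8). Or minus Ir had a mean of -0.10 ± 0.11 (SD, n = 8), and Gr minus Ir one of -0.07 ± 0.09 (SD, n = 8). Or and Gr medians were below the Ir median on 6 of 8 arrays each. No test of these scores over members was made.

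Because the members moved together, their ratios were also taken relative to the receptor median on each array, a choice made after seeing the data. The median residual SD of the fit is the spread of 1 array about the fit, in log2 units. It then fell from 0.360 to 0.211 over the members and was smaller for 93 of the 117. A fall is in part built in, since the members' own median was subtracted. No other set of genes was centred on its own median for comparison. In this fit of all genes 17 receptor genes passed above the receptor median, 10 below it and 90 on neither side. All genes passed above it in 56% and below it in 5.11% of cases, which the shift of the centre brings with it. On simulated data the fit relative to the receptor median recovered 31% of shifts of 0.5 and 82% of shifts of 1. Genes on neither side may therefore still differ from that median. By family, 6 Or, 4 Gr and 7 Ir genes were above and 6, 1 and 3 below.

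The genes above included all 6 that had passed on the positive side. Or43b stood 1.34 ± 0.63 (SD, n = 8) above the receptor median, Gr23a 1.10 ± 0.37 (SD, n = 8), Ir75d 0.87 ± 0.35 (SD, n = 8) and Or7a 0.84 ± 0.38 (SD, n = 8), each above it on all 8 arrays. Ir54a stood 0.77 and Ir84a 0.76 above it, also on all 8. The 11 others are named here after their values were seen. Among them were the larval receptor Or63a at 0.57 ± 0.35 (SD, n = 8), the farnesol receptor Or83c at 0.51 ± 0.36 (SD, n = 8) and the acid receptor Ir64a at 0.49 ± 0.41 (SD, n = 8). The sugar receptors Gr61a, at 0.39 ± 0.29 (SD, n = 8), and Gr5a, at 0.24 ± 0.17 (SD, n = 8), were above it on all 8 arrays. Or74a, Ir93a, Gr98a, Ir76a, Or67d and the cool sensor Ir21a made up the rest, between 0.24 and 0.77.

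Or74a and Or43b rested on very dim spots, and Or63a and Ir54a on dim ones, at brightness percentiles 3.22 and 7.89. Or74a was the dimmest of all 10610 genes, with a turned ratio of 1.73 at the highest, a negative one on 3 arrays and an SD of 0.86 (n = 8). The genes below the receptor median were closer to it, from Gr33a at -0.33 ± 0.21 (SD, n = 8) to Or67a at -0.21 ± 0.28 (SD, n = 8). Gr33a, Ir87a, Ir92a, Or92a, Or33b, Ir85a and Or35a were below it on all 8 arrays. The count of 10 below rests on single arrays: it was 2 without replicate 2, 3 without replicate 4, 2 without replicate 5, 2 without replicate 6, 6 without replicate 7 and 1 without replicate 8. The count of 17 above was 11 without replicate 5 and 11 without replicate 6.

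**Figure D4:**
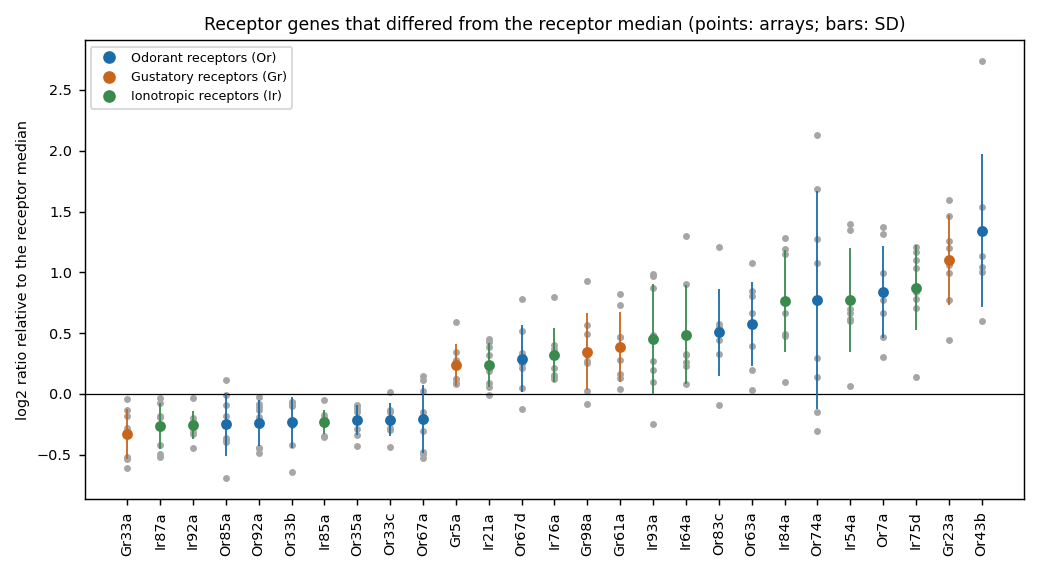
The horizontal axis names the 27 receptor genes that passed above or below the receptor median and the vertical axis is the log2 ratio relative to that median, with small points for the 8 arrays and larger points with bars for the mean and SD, coloured by family. Genes above reach 1.34 at Or43b, and those below reach only -0.33 at Gr33a.

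Receptor genes often lie in tandem clusters of related genes, and the members next to each other in the genome were compared pair by pair. In 12 pairs of members next to each other in the genome, formed by 22 genes, both members passed on the negative side in 11 pairs. Of single members 73.5% passed on that side, which is not a share of pairs, and some genes belonged to more than 1 pair. The share among pairs that are not neighbours was not computed. The exception was Or59b, the receptor for methyl acetate, at -0.23 ± 0.22 (SD, n = 8; limma adjusted p = 0.0545), beside the palp receptor Or59c at -0.51 ± 0.53 (SD, n = 8; limma adjusted p = 0.0178). Or59c lost its call without replicate 3 (limma adjusted p = 0.0584), and Or59b gained one without replicate 1 or 2. Their difference of 0.29 was the largest, with Or59b higher on 6 of 8 arrays (exact two-sided sign-flip permutation test, p = 0.0625, adjusted p = 0.344 over 12 pairs). No pair passed 0.05, adjusted or not, where the smallest p that 8 arrays allow is 0.0078125. The tests were added after seeing the data, and these pairs were named after their values were seen.

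Or22a and Or22b, which share an antennal neuron tuned to fruit esters, read -0.51 ± 0.47 (SD, n = 8; limma adjusted p = 0.0115) and -0.43 ± 0.39 (SD, n = 8; limma adjusted p = 0.0133). They differed by -0.08 ± 0.22 (SD, n = 8), and Or22a was the higher on 3 of 8 arrays. Or33b and Or33c differed least of all pairs, by -0.02 ± 0.12 (SD, n = 8). Sequences of neighbouring receptors are alike, and whether spots of such pairs read each other's RNA was not tested.

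On each chromosome arm more members passed as negative than as positive. On arm 2L 18 of 20 passed as negative, on 2R 21 of 32, on 3L 14 of 22, on 3R 23 of 27 and on the X chromosome 10 of 16, where 27.9% of all genes over the genome did; the share of all genes on each arm was not computed, and no difference between arms was tested. Medians ran from -0.53 on 2L to -0.32 on 2R.

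The residual SD of most receptor genes was above the median of all genes. The median residual SD was 0.405 for Or genes, 0.387 for Gr genes and 0.339 for Ir genes, against 0.301 for all genes. It was above the median of all genes for 84 of 117 members, and above the median of genes of like brightness, in 10 equal bins, for 82. Genes of like ratio were not compared. Relative to the receptor median the members' median residual SD was 0.211. How much of the residual SD came from the differing spread of the arrays was not tested. Brightness here is the mean log2 of the pair of whole numbers recovered from each deposited ratio, and it is a lower bound. The members were dimmer than most genes, with median brightness percentiles of 39.3 for Or, 33.1 for Gr and 25.2 for Ir genes, and 42 of 117 were among the dimmest 25% of all genes and 10 among the brightest 25%.

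Across genes, brightness and ratio had Pearson's r = -0.50 in 49 Or genes, -0.34 in 27 Gr genes and 0.01 in 41 Ir genes, against 0.03 in all genes. These are descriptions, since genes on the same arrays are not independent. Among the dimmest 10% of genes the 19 members had a median ratio of -0.23, and the 18 members between percentiles 10 and 20 had one of -0.44. The dye term, which catches a difference between the channels that the stages do not explain, passed limma's test for 0 of 117 members and for 0% of all genes; with unadjusted p under 0.05 it did so for 2 members and for 478 of all genes.

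**Figure D5:**
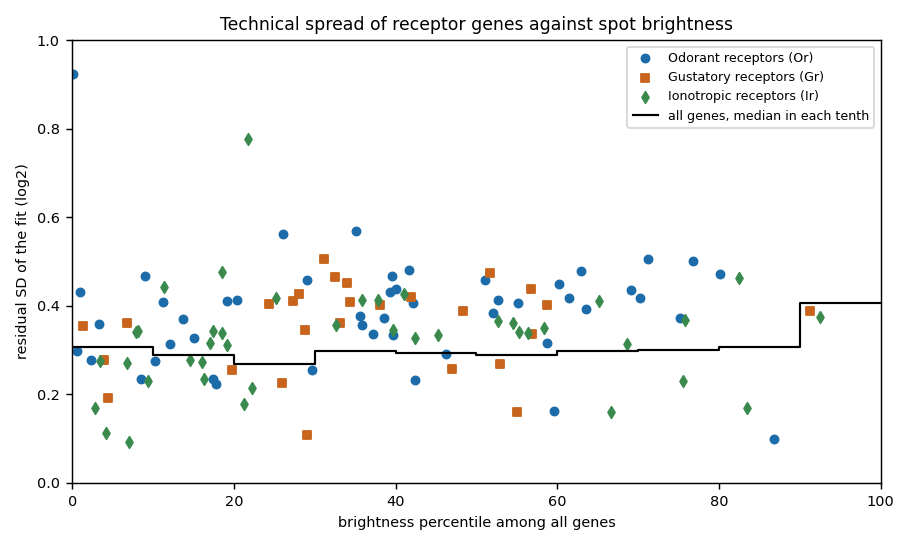
The horizontal axis is the brightness percentile among all genes and the vertical axis the residual SD of the fit in log2 units, with a coloured point per receptor gene and a black line for the median of all genes in each of 10 brightness bins. Of the 117 points 82 lie above the line, and the 2 highest belong to Or74a and Ir67b.

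Other genes of chemosensory neurons lay on the negative side in part. From a list of 35 genes that are not receptors of these families 26 were measured, with a median of -0.26. Of these 13 passed as negative, 2 as positive and 11 as neither, where 27.9% and 29.2% of all genes passed on the 2 sides. The negative ones included pdm3, a transcription factor needed for the expression of some odorant receptors, at -1.03. Among them were also a5, a gene of a putative odorant-binding protein, at -0.71 and CheA75a at -0.55. The positive ones were Arr2, an arrestin of photoreceptors, at 0.73 and nan, a channel subunit of hearing neurons, at 0.29. Each of these 5 had limma adjusted p under 0.05, but nan lost its call without replicate 1, 3, 4 or 5 (limma adjusted p from 0.0526 to 0.0886). With no centring Arr2 was at 0.29 (limma adjusted p = 0.152) and nan at -0.14, neither past the threshold. pdm3 was negative on every array, from -1.43 to -0.63.

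The ionotropic glutamate receptors, from which the Ir family descends, lay near zero. Of 16 names listed 9 were measured, with 2 negative, 1 positive and a median of -0.07. These shares of 22.2% and 11.1% stood beside 27.9% and 29.2% of all genes. The 9 genes were dim, with a median brightness percentile of 7.6, and 5 of them were among the dimmest 25% of all genes. The 2 negative ones were brighter, GluRIA at percentile 77.2 and GluRIIB at 65.1. Whether dimness bore on the median was not tested. GluRIIB, a subunit of the neuromuscular junction, was at -0.61, GluRIA at -0.43 and Ekar, a receptor subunit of photoreceptors, at 0.38. Ekar was at 0.24 (limma adjusted p = 0.0971) with arrays centred on all spots and at -0.054 with no centring. General neuronal genes lay above zero with arrays centred on gene spots. Of 8 listed 4 were measured: elav, an RNA-binding protein of neurons, at 0.80, the vesicle protein gene nSyb at 0.51 and the active zone gene brp at 0.33 passed on the positive side, and the sodium channel gene para was at 0.11 and did not pass. Their median was 0.42, against -0.44 for the receptor genes. Over all genes 29.2% passed on the positive side. With no centring the median of all genes was -0.45, and no value of the 4 neuronal genes is given for that choice. No difference between these lists was tested.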

How the data were processed

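The deposited value of each of the 20000 spots per array is a log2 ratio of the 2 channels, made by the authors with Spot 2.0, per the submitters' processing notes and the labels. The labels name no background handling, spot filters, dyes or numerator channel. Every deposited value was the log2 of one whole number over another, within a relative tolerance of 1e-13. The labels describe polyA RNA, though GEO's molecule field reads total RNA.

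Spots were named by GEO's platform annotation: 12246 had 1 gene, 86 several (1 of these holds Gr2a and is not used) and 7668 none. Of those with 1 gene, 11873 matched a current RefSeq gene. A gene's spots were averaged. The fit of all 10610 genes used limma (version 3.58.1, lmFit and eBayes, under R 4.3.3). It had stage and dye columns, 6 residual degrees of freedom and Benjamini-Hochberg adjustment at 0.05. Checked on data simulated with noise independent between genes, it recovered 66% of shifts of 0.5 and 96% of shifts of 1. Summaries used Python 3.11.15.

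Genes named were, by rule, up to 6 called members per family and side with the largest ratio, fixed receptors of known role, members with several spots, the 3 nearest the threshold on each side and up to 3 per side of each list. Others are named where singled out, after their values were seen: the genes above and below the receptor median, the neighbouring pairs, the markers and the CG17275 spot. The members and lists were chosen with earlier results of these data known. Alternatives were another centring, none, scaling, quantile and loess normalization, leaving out the dimmest 25% of spots, medians of spots, no dye column, array weights and leaving out each array. Centring on the receptor median and the tests of neighbouring pairs were added after seeing the data.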

Additional observations from a re-analysis of the deposited data

Results flagged for a closer look

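For 14 genes of 121 tested, 1 array lay apart from the other 7 by more than Dixon's 95% critical value for 8 values; chance flags about 1 in 20. On replicate 7, the array with the widest spread, this was so for 11 genes: Ir11a read -1.24, Ir21a -0.54, Ir60a -1.24, Ir68b -1.46, Ir75c -1.57, Ir76a -0.78, Or23a -1.39, Or33b -1.57, Or67c -1.24 and Or67d -1.05, each below its other arrays, and Orco read 0.54, above its others. On replicate 3 Gr47a read -1.18. On replicate 8 Ir54a read -0.34, below its other arrays, and Ir67b read 1.85 against -0.50 to -0.04 on the other 7. The mean of Ir67b was 0.04 with all arrays and -0.23 without replicate 8.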

How the results depend on the processing

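Counts of receptor genes on the negative side, by family, kept within 1.5 times of those reported under every alternative run, except Ir genes with the dimmest 25% of spots left out, at 15, where fewer genes were tested. The positive side was less secure. With arrays centred on all spots, Or genes had 1 positive call, Ir genes 0 and all genes 2049; the members then split into 2 positive and 97 negative calls, and the median of all genes was -0.15. With no centring, the positive counts were 1 for Or, 0 for Gr, 0 for Ir and 1034 for all genes, 6029 of all genes were negative, the members split into 1 and 106, and the medians were -0.91 for Or, -0.89 for Gr, -0.83 for Ir and -0.45 for all genes. Or genes had 1 positive call with the dimmest 25% left out. Leaving out each array in turn gave 1 to 3 positive Ir genes. Of members below the receptor median there were 17 with arrays scaled to one spread, 19 with quantile normalization, 3 without the dimmest 25%, 20 with array weights and 1 to 8 leaving out each array, which gave 11 to 17 members above it. Of 2100 values for 126 single genes, 1941 kept their side and call, 74 gained a call, 62 lost one and 23 changed sign. The 1941 include all 126 values with medians of spots, where the ratio of a gene with 1 spot cannot change. With no centring the reversed ratios were Ekar -0.054, Ir54a -0.076, Ir64a -0.36, Ir67b -0.40, Ir84a -0.083, Ir93a -0.39, Or63a -0.27, Or74a -0.077, Or7a -0.0058, Or83c -0.34 and nan -0.14. Centred on all spots they were Ir64a -0.061, Ir67b -0.10, Ir93a -0.10 and Or83c -0.041. Or67d was 0.11 with array weights and Or74a -0.041 with loess. Leaving out each array in turn, the ratio ran from -0.071 to 0.0014 for Gr61a, from -0.15 to 0.0096 for Ir76a and from -0.23 to 0.024 for Or67d, each positive only without replicate 7. It ran from -0.034 to 0.086 for Ir93a, negative without replicate 3 or 5, and from -0.23 to 0.16 for Ir67b, negative only without replicate 8. The causes were not tested. No paired analysis was possible because the replicate numbers 1 to 8 are not shared by the 2 orientations. No level above background is available, so dim spots such as those of Or74a and Or43b limit what their ratios show.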
